A study of Mus musculus with 4 samples.

Results

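Kindlins, talins and integrin subunits were followed in mouse oocytes with and without γ-irradiation as a set of 10 genes: the kindlins Fermt1, Fermt2 and Fermt3, the talins Tln1 and Tln2, the integrin β subunits Itgb1 and Itgb5, and the integrin α subunits Itgav, Itga6 and Itga9. They are 10 of the 17374 genes and 29 of the 45505 RefSeq transcripts in the deposited table, and each was found by its NCBI gene ID. Fermt1 was selected on its higher counts in these same irradiated libraries, so its difference is described here without a test. The others were taken as its relatives and binding partners. All 10 genes had enough counts to be compared. Fermt1 itself, Fermt3 and the Itga6 transcript NM_001277970.1 described further on reached that limit only through the irradiated libraries. The Tln2 transcript XM_011242811.3 reached it only through the control libraries. A difference was thus built into their selection, and any p-values printed for them are descriptions.

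All oocytes were germinal vesicle (GV) stage oocytes, which are arrested in the first meiotic prophase. They came from postnatal day 16 females, of a C57/Bl6/DBA2J F1 hybrid background by the study's methods. The study describes oocytes of this age as mostly of the NSN type, with active transcription and no chromatin ring around the nucleolus. Control oocytes (2 libraries) were kept in culture medium with milrinone, which holds oocytes at the GV stage, without irradiation. Irradiated oocytes (2 libraries) received 5 Gy from a Cesium-137 source in M2 medium with milrinone and were cultured for 24 h. Cumulus cells had been removed by pipetting and the zona pellucida with Tyrode's solution, and the methods give 59 oocytes for each condition in 2 independent experiments. How many females were pooled for a library was not given in the sources used here.

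Integrins are receptors made of an α and a β subunit that span the cell membrane and hold the cell to laminin, fibronectin and other matrix proteins, or to partners on another cell. They switch from a closed to an open, ligand-binding form when talin and kindlin bind to separate sites in the tail of the β subunit. Fermt2 (kindlin-2) is the form found in most tissues, Fermt1 (kindlin-1) is best known from epithelia, where its loss causes the skin disease Kindler syndrome, and Fermt3 (kindlin-3) is the form of blood cells and platelets. In the oocyte, α6β1 and α9β1 integrins are present on the plasma membrane together with the tetraspanin CD9, which sperm and egg fusion depends on.

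Estimated counts summed to between 33349466 and 37232818 per library. Irradiated library 2 stood apart from the others: its log2 CPM values correlated with them at 0.981 to 0.984, whereas the other 3 libraries correlated at 0.992 to 0.993, and its TMM scaling factor was 1.19 against 0.923 to 0.975. All 12 oocyte markers examined were above 3 counts in every library. Their summed level was between 53668 and 54039 TPM in the other 3 libraries and 47795 TPM in irradiated library 2. Single markers differed in both directions in that library. For example, Zp2 was at 1937 TPM against 4115 to 4452 in the others, and Ooep at 1595 against 3889 to 3994. Zp1 was at 2579 TPM against 989 to 1294, and Nobox at 1215 against 398 to 468. TPM is a read count per transcript length, rescaled so that every library has an equal sum. Of the 12 genes in the granulosa and cumulus list, 8 were listed in the deposited table, and Amh, Amhr2, Foxl2 and Fst were not. The 8 summed to between 16.7 and 22.3 TPM, and 4 of them were above 3 counts in every library. These were Cyp19a1 at 528 to 543 counts, Nr5a2 at 382 to 702, Kitl at 172 to 222 and Fshr at 91 to 148. Inha was at 3 to 11 counts and Inhba at 0 to 7, and Hsd17b1 and Gja1 were at or under 3 counts throughout.

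The kindlin genes are related in sequence, so the first question was whether reads of the abundant Fermt2 could be counted as Fermt1. In GENCODE transcripts of GRCm38 matched to the RefSeq entries, the coding sequences of Fermt1 (2034 bases, 677 residues) and Fermt2 (2043 bases, 680 residues) were 67.3% identical in a global alignment. The longest run of identical bases was 26, and it was 20 between Fermt3 and either of the others, against a read length of 100 bases. The windows around the longest run, from chr2:132911178-132911237 and chr14:45461767-45461826 of GRCm38, both read from the minus strand, are shown to set this run, in capitals, against its flanks.
Fermt1: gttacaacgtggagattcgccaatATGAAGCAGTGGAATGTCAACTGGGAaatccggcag
Fermt2: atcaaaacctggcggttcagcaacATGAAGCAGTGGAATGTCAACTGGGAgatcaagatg
Outside the capitals the windows differed at 14 of 34 positions. Of the 4885 runs of 31 bases in the Fermt1 transcript, 40 (0.819%) also occurred in transcripts of other genes on either strand. Of the 2004 runs that lie within the coding sequence, 0 did. The 40 lay between bases 3560 and 4553 of the transcript and were shared with 2743 genes. Which bases the Fermt1 reads covered is not shown by the deposited counts.

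Fermt1 (chromosome 2, 132904177 to 132946036, 2 listed transcripts) had 137 and 148 estimated counts after irradiation, against 5 and 8 in control oocytes. Both irradiated libraries lay far above both controls and close to each other. Normalized to the effective library size, the mean was 6.90 ± 2.51 counts (SD, n = 2 libraries) without and 137 ± 12.9 (SD, n = 2) with irradiation. The difference was 4.29 on the log2 scale, and it is the value for which the gene was chosen. In TPM the gene was at 0.04 and 0.06 in control and at 1.07 and 1.24 in irradiated libraries. The ratio of the mean TPM was 23.1, and it was between 19.2 and 28.9 with any 1 library left out. It was as large without the library that stood apart: irradiated library 1 had the higher normalized count, 146 against 127.

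Among the 12569 genes compared, Fermt1 ranked 4 by log2 fold change. Fermt3, H4bc24 and Frs3 were above it, with 0 to 1.81 counts in each control library, and Trim7, with 1 and 0 counts, came just below at 4.21. Of the 218 other genes with a control mean of up to 10 normalized counts, 10 had a log2 fold change above 2. Over all 12569 genes compared, 16 did. Genes this low in control pass the filter on low counts more readily when they rise, so rises are favoured among the 218. The study's methods set 2 limits on transcripts, a log2 fold change of more than 2 in either direction and an adjusted p under 0.05. They name both edgeR and DESeq2, whereas here the limits were applied to gene totals in edgeR. Of the genes compared, 1 (0.00796%) passed both. Fermt1 was selected on these same values, so whether it passed is not used and nothing is read from this count. Here and below, p-values of gene totals come from the quasi-likelihood test in edgeR and were adjusted over all genes compared by Benjamini and Hochberg's procedure. Nearly all reads of Fermt1 were given to NM_198029.2, with 5, 8, 136 and 148 counts. The predicted transcript XM_006499507.1 had 1.31 counts in irradiated library 1 and 0 elsewhere. The epithelium marker list, of interest because Fermt1 is an epithelial gene, summed to 6.6, 6.75, 6.18 and 9.55 TPM over the libraries in the same order, with the keratins Krt18 and Krt5 at or under 3 counts in all 4. The keratin Krt8 had 132, 104, 86 and 185 counts, Cdh1 between 355 and 433 and Epcam between 15 and 28. Krt19 and Krt14 were not listed in the deposited table. The part of these markers in the Fermt1 difference was not tested. The theca and stroma list summed to between 1.29 and 2.71 TPM, that of endothelium to between 4.46 and 6.78, and that of erythroid cells to at most 0.05. The non-coding gene Gm14102, which was not listed in the deposited table, overlaps the first 285 bases of Fermt1 in the RefSeq annotation.

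Genes nearest to Fermt1 in their levels over the 4 libraries were found by Euclidean distance in log2 CPM. They were Ndufa4l2 at a distance of 1.94, Rtl8b at 2.12, Pramel42 at 2.51, Acp4 at 2.56 and Inka1 at 2.77. Ndufa4l2, which encodes a mitochondrial protein induced by hypoxia, had 10 and 19 counts in the controls, then 51 and 173. Rtl8b, a gene derived from a retrotransposon, had 4.86, 7.99, 34.9 and 77.5. In counts all 5 were highest in irradiated library 2. These distances carry no test.

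**Figure D1:**
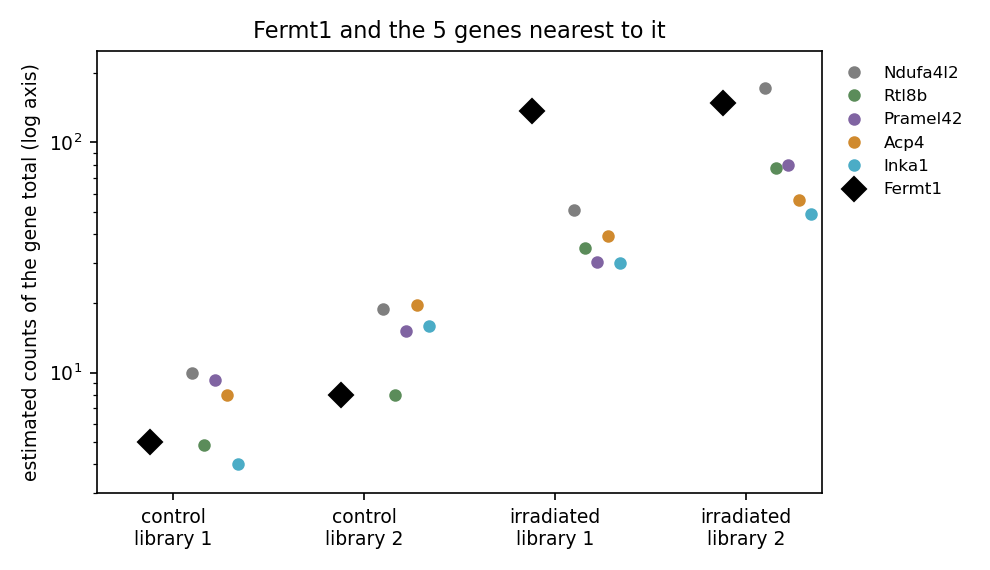
Estimated counts of Fermt1 (black diamonds) and of the 5 genes nearest to it (circles) in each library, on a log axis. Fermt1 was at 5 and 8 counts without irradiation and at 137 and 148 with it, and in these counts all 6 genes are highest in irradiated library 2.

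Of the listed genes within 250 kb of Fermt1, namely Shld1, Chgb, Trmt6, Mcm8, Crls1 and Lrrn4, all but Chgb were tested. None of those tested had an unadjusted p under 0.05 in edgeR, while 4.63% of all genes were higher and 1.29% lower at that p. The closest in size was Lrrn4, a leucine-rich repeat membrane protein, with 36, 36, 43 and 93 counts and a log2 difference of 0.74 (standard error 0.330, edgeR adjusted p = 0.708). It was high in irradiated library 2 alone. The replication and repair helicase Mcm8 had a log2 fold change of -0.10, the tRNA methyltransferase subunit Trmt6 -0.06, the cardiolipin synthase Crls1 -0.29 and the DNA repair factor Shld1 0.07. Those of Mcm8 and Trmt6 changed sign when scaled by library size alone, to 0.0507 and 0.10. Chgb had 0 or 1 count in each library, too few to be tested.

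Fermt2 (chromosome 14, 45458792 to 45530310) was the most abundant of the 10 genes, at 73.8 and 77.2 TPM in control and 70.9 and 81.3 TPM in irradiated libraries. These ranges overlap. It had 6184 and 5744 counts in control and 5462 and 5848 after irradiation, or 6282 ± 79.7 normalized counts (SD, n = 2) against 5422 ± 547 (SD, n = 2). The log2 fold change of -0.21 (95% interval -0.59 to 0.16) did not pass (edgeR adjusted p = 0.727), and on the log2(TPM + 1) scale it turned to 0.0084. NM_146054.3 held between 98.4% and 100% of its reads in every library.

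Fermt3 (chromosome 19, 6998958 to 7019469, 1 listed transcript) had no counts in either control and 12.16 and 23.96 in the irradiated libraries, or 0.20 and 0.42 TPM. Against a floor of 3 counts per library, its mean was at least 5.28-fold higher in irradiated oocytes. Since it passed the filter on low counts only through these libraries, its p-values are no support for a difference. The unadjusted p was 0.000924 and the adjusted p 0.708 (edgeR). The value depended on the test and on the libraries: edgeR gave an adjusted p of 4.42e-05 in its exact test and of 2.51e-06 without irradiated library 1, which leaves a single irradiated library that is assumed to vary like the controls.

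The Fermt3 counts were not whole numbers although the gene has a single listed transcript, and a count that is estimated takes fractions where reads match several transcripts. In the RefSeq annotation 1364 bases at the end of Fermt3 overlap Trpt1, a tRNA phosphotransferase gene on the opposite strand. Trpt1 had 81.0, 94.99, 97.8 and 134 counts, and the sum of both genes was 110 in irradiated library 1 and 158 in irradiated library 2. Whether counting used the strand is not given in the sources used here, so reads of Fermt3 and Trpt1 cannot be told apart over this stretch. Of the leukocyte and platelet markers, Coro1a, Tyrobp, Fcer1g and Spi1 were at or under 3 counts in all 4 libraries. Laptm5 had 13, 30, 20 and 47 counts, and Lcp1 held most of the list's 25.97, 28.3, 28.2 and 47.4 TPM. Ptprc, Cd52, Gp9 and Pf4 were looked for and were not listed in the deposited table. The part of these markers in the Fermt3 difference was not tested.

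Over the kindlin family, Fermt1 made up 0.0541% and 0.0777% of the summed TPM without irradiation and 1.48% and 1.49% with it. Fermt2 therefore remained the main kindlin mRNA, at 99.9% in both controls and at 98.2% and 98.0% after irradiation. Ranked by mean TPM within each condition, Fermt1 was 9 of 10 in control oocytes and 5 of 10 in irradiated oocytes, and among all 17374 genes it moved from rank 13970 to rank 9356.

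**Figure D2:**
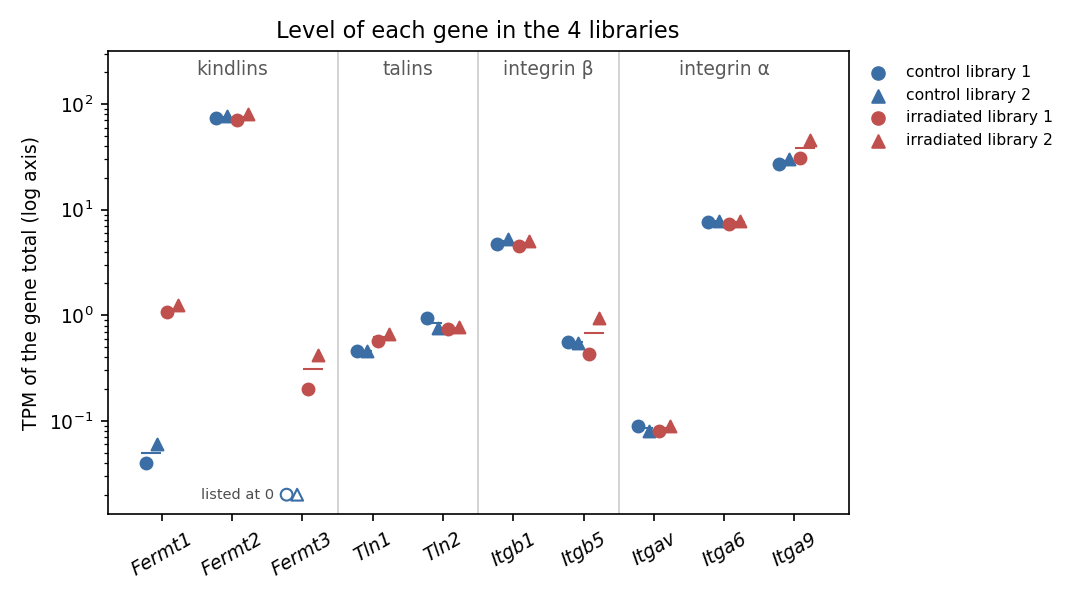
TPM of the gene total of each kindlin, talin and integrin gene in the 4 libraries (points) with the mean of each condition (short lines), on a log axis; open symbols mark genes listed at 0. Fermt1 is at 0.04 and 0.06 in control and 1.07 and 1.24 in irradiated libraries, while Fermt2 lies between 70.9 and 81.3 in all 4.

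The talins link the integrin tail to actin. Tln1 (chromosome 4), the form of most tissues, had 120 and 132 counts after irradiation and 105 and 93 in control. Its log2 fold change was 0.21 (95% interval -0.26 to 0.67, edgeR adjusted p = 0.752). Tln2, the form most abundant in brain and striated muscle, had 225 and 217 counts after irradiation and 311 and 222 in control. Its log2 fold change was -0.40 (95% interval -0.90 to 0.11, edgeR adjusted p = 0.708). In normalized counts neither talin overlapped between conditions, Tln1 being higher and Tln2 lower, but Tln2 in control library 2, at 241, was close to irradiated library 1, at 239.

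Tln1 and Tln2 were of similar level in TPM. Tln1 was at 0.46 in both controls and at 0.57 and 0.67 after irradiation, and Tln2 was between 0.74 and 0.95 in all 4 libraries. Tln1 has 1 listed transcript. The reads of Tln2 were divided among 9, of which XM_011242813.3 held 61.4%, 31.8%, 56.7% and 53.0%. Others were at 0 in some libraries and not in their replicates, such as XM_006511438.4 with 0, 65.5, 0 and 34.9. XM_011242811.3 was at 18.9 and 10.03 counts in control and at 0 after irradiation, its mean being at least 5.19-fold lower against the floor. It passed the filter on low counts only through the control libraries, so its p is no support for a difference (edgeR adjusted p = 0.779 over all transcripts).

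Itgb1, the β subunit shared by most matrix-binding integrins, was at 4.76 and 5.25 TPM in control and 4.5 and 5.04 TPM in irradiated libraries. Its counts of 523, 512, 454 and 475 gave a log2 fold change of -0.29 (95% interval -0.64 to 0.05, edgeR adjusted p = 0.708). Itgb5, which pairs with αv to bind vitronectin, had 31, 30, 26 and 49 counts. The irradiated libraries lay on either side of the controls, and the log2 fold change of 0.13 (95% interval -0.63 to 0.90, edgeR adjusted p = 0.894) turned to -0.22 without irradiated library 2.

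Itga9, which with β1 binds tenascin and osteopontin, was the most abundant α subunit at 27.4 and 30.5 TPM in control and 30.7 and 45.5 TPM in irradiated libraries. Irradiated library 2 stood above the rest, and irradiated library 1 was close to the higher control. The log2 fold change was 0.15 (95% interval -0.20 to 0.50, edgeR adjusted p = 0.764). NM_001113514.1 held over 98% of its reads in each library. Itgav, the vitronectin receptor subunit αv, was the least abundant of the 10 genes over all libraries, with 20, 14, 14 and 14 counts and a level of 0.08 or 0.09 TPM. Its log2 fold change was -0.41, with a 95% interval from -1.36 to 0.53 (edgeR adjusted p = 0.757), the widest of the 8 genes with counts in both conditions, Fermt1 aside.

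Itga6, which with β1 binds laminin, was at 7.71, 7.80, 7.36 and 7.79 TPM. Its counts of 1199, 1074, 1047 and 1037 gave a log2 fold change of -0.25 (95% interval -0.62 to 0.11, edgeR adjusted p = 0.708). The total of the gene did not pass, and the division of its reads among transcripts is described further on.

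**Figure D3:**
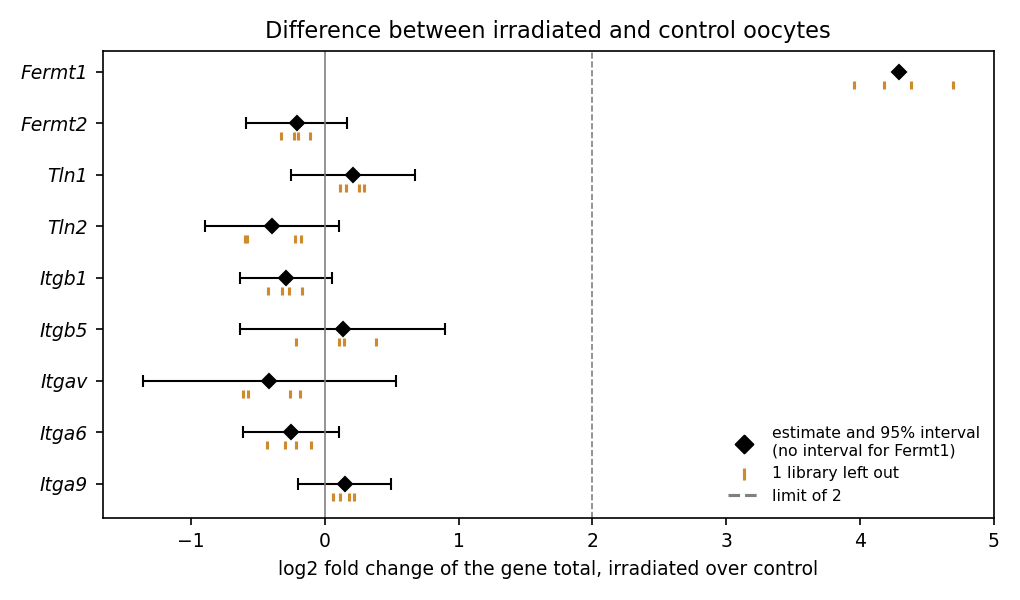
Log2 fold change of the gene totals, irradiated over control, with 95% intervals from edgeR's fit (black) and the value with each library left out in turn (orange ticks). Fermt1, shown without an interval, lies at 4.29 beyond the dashed limit of 2, and the intervals of the other 8 genes drawn cross 0; Fermt3 is left out because it has 0 counts in control.

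Of the 9 genes other than Fermt1, 0 passed both limits, and 1 (Fermt3) had an unadjusted p under 0.05 in the higher direction and 0 in the lower (edgeR). Of all genes compared, 4.63% were higher and 1.29% lower at that unadjusted p. In normalized counts, 3 of the 9 had both irradiated libraries above both controls, against 22.1% of all genes, and 5 had both below, against 19.9%. Without irradiated library 1 the adjusted p of Fermt2, Tln2, Itgb1 and Itga6 fell to between 0.000258 and 0.00292 (edgeR) at log2 fold changes of -0.33 to -0.60. In that fit 5395 genes had an unadjusted p under 0.05 instead of 744.

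By mean TPM over the 4 libraries the genes were ordered Fermt2, Itga9, Itga6, Itgb1, Tln2, Itgb5, Fermt1, Tln1, Fermt3 and Itgav. Fermt2, Itga9, Itga6 and Itgb1 were each separated from the next without overlap of any library. Tln2 and Itgb5, Itgb5 and Fermt1, Fermt1 and Tln1, and Fermt3 and Itgav were neighbours whose ranges overlapped. Among the α subunits listed here, Itga9 held between 77.8% and 85.3% of the summed TPM and Itga6 between 14.6% and 21.9%.

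Isoform usage, the share of a gene's reads that each transcript takes, could be tested in the 4 genes with several transcripts above the count limit: Fermt2, Tln2, Itga6 and Itga9. Over all 6323 genes tested, 16 or 0.253% had an adjusted p under 0.05. Itga6 was among them (adjusted p = 0.0346 with edgeR's diffSpliceDGE and Simes' method), and the other 3 had adjusted p values of 1.00. The Itga6 test includes NM_001277970.1, which had at most 0.08 counts in a control library and passed the filter on low counts only through the irradiated libraries, so this p is not independent of that filter.

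In Itga6, NM_001277970.1 took 10.1% and 19.1% of the reads after irradiation, against 0.00667% and 0% in control. It had 106 and 198 counts after irradiation and 0.08 and 0 in control. Its mean was at least 45.4-fold higher against the floor of 3 counts per library. NM_008397.4 was lower in both irradiated libraries, at 225 and 242 counts against 408 and 321, or 21.5% and 23.3% of the reads against 34.0% and 29.8%. The predicted transcript XM_011239308.1 held most of the reads throughout, at 66.0%, 70.2%, 68.4% and 57.6%, and its libraries overlapped in share.

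**Figure D4:**
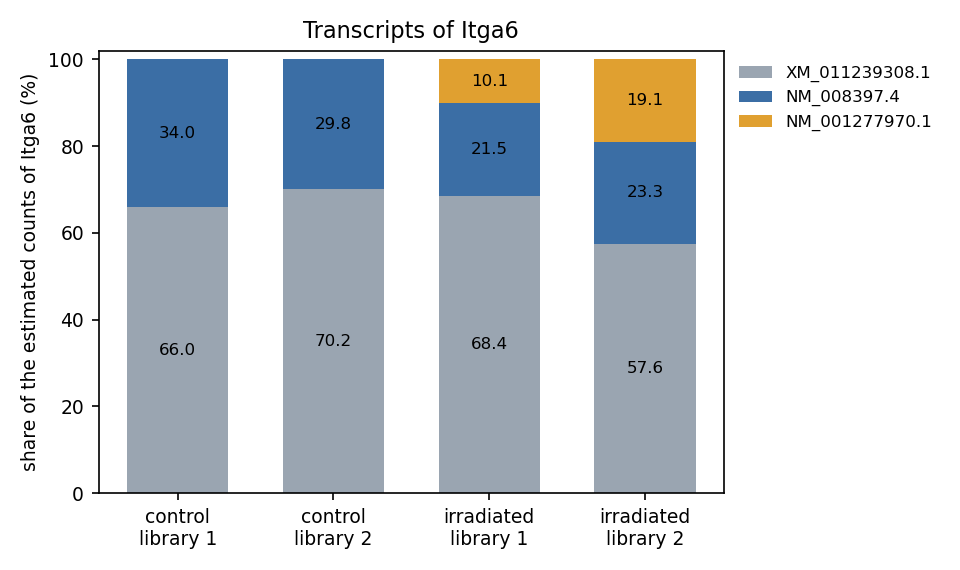
Share of the estimated counts of Itga6 given to each of its 3 listed transcripts, in percent, in the 4 libraries. NM_001277970.1 is near 0 in both control libraries and takes 10.1% and 19.1% in the irradiated libraries, where NM_008397.4 is at 21.5% and 23.3%.

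These 2 known transcripts of Itga6 encode proteins that differ at the end inside the cell. NM_008397.4 contains exon 25, of 130 bases (chr2:71853534-71853663 of GRCm38, plus strand), in which its reading frame stops. NM_001277970.1 skips this exon and reads on in the next, so that the first 3119 coding bases are shared and the proteins have 1073 and 1091 residues. The long-known A and B forms of integrin α6 differ in this way, by inclusion or skipping of an exon for the cytoplasmic tail. The coding bases of the alternative ends, from chr2:71853534-71853641 and chr2:71855854-71856015, are shown with the stop codon in capitals, since the proteins differ there. The second stretch also begins the last exon of NM_008397.4, after its stop codon. Reads inside that stretch therefore do not tell the forms apart, whereas reads in exon 25 or over its skipping do.
NM_008397.4: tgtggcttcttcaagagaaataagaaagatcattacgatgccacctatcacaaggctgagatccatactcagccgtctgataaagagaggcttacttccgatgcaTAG
NM_001277970.1: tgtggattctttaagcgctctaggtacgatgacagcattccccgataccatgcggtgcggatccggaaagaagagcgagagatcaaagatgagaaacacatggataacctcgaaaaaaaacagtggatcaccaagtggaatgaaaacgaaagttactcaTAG
The models also differ in their first exon, and the deposited counts do not show which bases the reads covered. The structure of XM_011239308.1 was not analysed here.

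As single transcripts, neither of these passed both limits: edgeR gave both NM_001277970.1 and NM_008397.4 an adjusted p of 0.777 over all transcripts. Of 26645 transcripts tested in this way 0 or 0% passed, while 1306 or 4.90% had an unadjusted p under 0.05. For NM_001277970.1 the value depended on the test, with an adjusted p of 2.48e-05 in DESeq2 and of 9.06e-07 in edgeR's exact test, and these too rest on a transcript that entered through the irradiated libraries alone. The call on Itga6 isoform usage was lost when any 1 library was left out, with adjusted p values from 0.118 to 0.476, and without the low-count filter (0.0613).

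The other genes of integrin adhesion were examined as 6 lists of 83 genes, of which 77 were listed in the table and 50 had enough counts. In edgeR 0 passed both limits, 4 were higher with an unadjusted p under 0.05 (4.63% of all genes were) and 0 were lower (1.29% of all genes were). The 4 became 17 without irradiated library 1, 9 higher and 8 lower, and 2 in DESeq2, in limma-voom and with either control library left out, and 1 in limma on log2(TPM + 1). Both irradiated libraries lay above both controls in 13 of the 50 and below in 5, against 22.1% and 19.9% of all genes. The median log2 fold change was 0.0638, and over all genes compared it was 0.0102.

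The 4 genes were Lama5, Actn4, Git1 and Cd151. Lama5, a laminin α chain of basement membranes, had 132 and 127 counts after irradiation and 81 and 82 in control, and its log2 fold change was 0.53 (95% interval 0.02 to 1.05). Cd151, a tetraspanin that binds α6 and α3 integrins, had 228, 243, 289 and 668 counts and a log2 fold change of 0.83. Git1, an adaptor of adhesion signalling, had 57, 56, 67 and 173 counts, and the actin crosslinker Actn4 had 306, 285, 348 and 597. Each of the last 3 was highest in irradiated library 2, while Lama5 was similar in both irradiated libraries. All 4 had an edgeR adjusted p of 0.708.

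**Figure D5:**
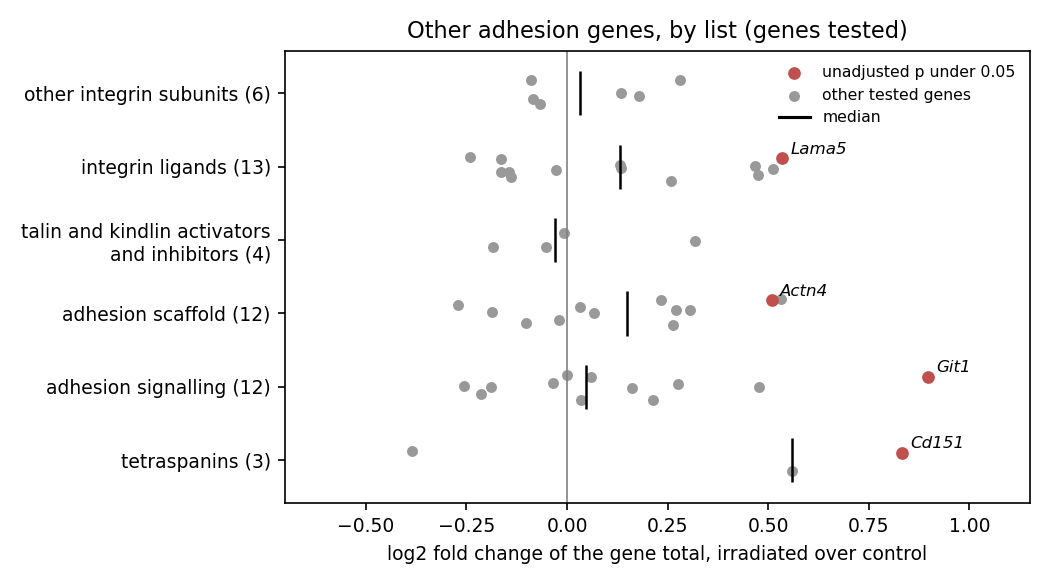
Log2 fold change, irradiated over control, of the 50 tested genes of the adhesion lists (points), with the median of each list (black line) and the number tested in brackets. The 4 labelled genes had an unadjusted p under 0.05; all points lie between -0.38 and 0.90, well inside the limit of 2.

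Other integrin subunits were low. Of 21, 17 were listed and 6 had enough counts, with log2 fold changes from -0.09 to 0.28 and Itga8 highest at a mean of 1.71 TPM. Among ligands the laminin chain Lamb1 was highest at 23.4 TPM, with 22.7, 23.3, 24.6 and 22.8 TPM over the libraries. Of genes that act on talin and kindlin binding, Itgb1bp1, which encodes the inhibitor ICAP-1 of the β1 tail, had a mean of 135 TPM, above Fermt2 and both talins. Its log2 fold change was -0.05 (edgeR adjusted p = 0.906), and it turned to 0.11 when scaled by library size alone.

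Among scaffold proteins Rsu1, a partner of the ILK complex, was highest at 16.4 TPM, and among signalling adaptors Nck1 at 57.8 TPM. The tetraspanin Cd9 was the highest of all at 1794, 1742, 1614 and 1491 TPM, with both irradiated libraries below both controls. Its log2 fold change was -0.38 (edgeR adjusted p = 0.715).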

How the data were processed

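Poly(A) RNA of GV oocytes was sequenced in 4 libraries as paired-end reads of 100 bp. The authors aligned the reads to GRCm38 with Bowtie2, and the submitters' processing notes also name HISAT2 and RSEM. They deposited an estimated count and a TPM value for each RefSeq transcript and library. Whether counting used the strand is not given in the sources used here. A further 10 columns (FPKM and averages) were not used.

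Counts were summed per NCBI gene, rounded and scaled by TMM. Features under a minimum count of 10 were removed by filterByExpr, and the rest were fitted by glmQLFit and glmQLFTest (edgeR 4.0.16, R 4.3.3), with p-values adjusted over all genes or transcripts tested. A call required more than 2 log2 units in either direction at an adjusted p under 0.05. Isoform usage was tested with diffSpliceDGE. The alternatives included DESeq2 1.42.0, limma 3.58.1 and edgeR's exact test. Tests were checked on simulated data. Levels are TPM, and log2 CPM used a prior count of 2. Symbols and coordinates came from RefSeq GRCm38.p6 (17323 of 17374 gene IDs matched), and sequences from GENCODE transcripts of that build. Figures were drawn with matplotlib 3.10.9.

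The genes and lists were chosen with earlier results of these data known. The text names all 10 genes and their transcripts above 3 counts where a result turns on them, adhesion genes with an unadjusted p under 0.05, the highest gene of each list, the 5 genes nearest to Fermt1 and listed genes within 250 kb. H4bc24, Frs3, Trim7 and Trpt1 were named after their values were seen. With 2 libraries per condition, p-values set each difference against the spread between these libraries alone. That spread is estimated with information from all features tested. In bulk libraries fewer cells and less RNA per cell cannot be told apart.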

Additional observations from a re-analysis of the deposited data

How the results depend on the processing

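The number of gene totals past both limits was 1 and was unchanged with DESeq2 size factors. It was 0 with library size only, limma-voom and limma on log2(TPM + 1) (586, 629 and 372 genes at an unadjusted p under 0.05), 3 without the low-count filter, 5 with DESeq2, 10 with edgeR's exact test and between 16 and 84 with 1 library left out. For transcripts it was 0, but 233 with DESeq2 and 247 with the exact test. Genes with changed isoform usage numbered 16, and 8 without the filter, 58 with an F test per gene and between 1 and 29 with 1 library left out. Of the genes other than Fermt1, 1 (Fermt3) passed both limits in the exact test and without irradiated library 1, and 0 under the other alternatives. Without irradiated library 2 Fermt3 fell below the count filter.

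Whether same-numbered libraries came from the same experiment is not given in the sources used here. Their deviations from the condition means correlated at 0.0975 for gene totals and 0.0206 for transcripts, which cannot settle whether they were paired. With the replicate number as a block, 7 gene totals, 0 transcripts and 3 genes with changed isoform usage passed, and the adjusted p of Itga6 isoform usage was 0.645. That p was 0.0613 without the filter, between 0.118 and 0.476 with 1 library left out, and still under 0.05 in the F test.

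The log2 fold change of Fermt1 was between 3.95 and 4.70 with 1 library left out and 1.04 on the log2(TPM + 1) scale, which compresses low levels. Its share of the irradiated kindlin level was 2.45% in CPM, which is not per length. Library size alone and log2(TPM + 1) moved the median of all genes to 0.17 and 0.14 from 0.0102, and directions of small differences turned with them. On log2(TPM + 1), Fermt2 turned to 0.0084, its transcript NM_146054.3 to 0.0151, XM_011242813.3 of Tln2 to 0.0157, Itga8 to 0.10, Lamb1 to 0.0377, Itgb1bp1 to 0.17, Nck1 to 0.0135, Trmt6 to 0.15 and Mcm8 to 0.11. With library size alone Itga8 turned to 0.10, Itgb1bp1 to 0.11, Trmt6 to 0.10 and Mcm8 to 0.0507. With 1 library left out, the following values took either sign: Itgb5 between -0.22 and 0.38, XM_011242813.3 between -0.72 and 0.62 (0.0034 without irradiated library 2), Itga8 between -0.19 and 0.0268, Lamb1 between -0.44 and 0.0577, Rsu1 between -0.24 and 0.30, Nck1 between -0.49 and 0.0127, Shld1 between -0.14 and 0.24, Trmt6 between -0.23 and 0.12 (0.0042 without irradiated library 2) and Mcm8 between -0.25 and 0.0467. None of these was called in either setting. The cause of these shifts was not tested. The lowest counts were those of Itgav and Fermt3, at most 20 and 23.96 in a library.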
